A study of Homo sapiens with 4 samples.

Results

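The clustered protocadherins are cell-surface adhesion proteins of the cadherin superfamily whose genes lie side by side in 3 clusters on human chromosome 5. The 53 genes described here are the protein-coding genes of GENCODE 44 on chromosome 5 whose names fit the alpha, beta and gamma series (PCDHA, PCDHB and PCDHG followed by a number or by A, B or C and a number), out of 19970 protein-coding genes on chromosomes 1 to 22 and X. Membership follows from gene name and position, and the gene family was picked with earlier results of these data known. The members comprise 13 alpha, 16 beta, 12 gamma A and 7 gamma B members and 5 C-type members, of which PCDHAC1 and PCDHAC2 end the alpha cluster and PCDHGC3, PCDHGC4 and PCDHGC5 end the gamma cluster. The metal-response transcription factor MTF-1 was mapped by CUT&RUN, in which an antibody directs a nuclease to the DNA that a protein occupies, in MDA-MB-231, an established human breast cancer cell line. One group was untreated (2 libraries, treatment none) and was passaged in normal medium alongside, and the other was kept in 10 µM cadmium (2 libraries) after selection for resistance by serial passaging in cadmium sulfate. Both groups are the same cell line with no genetic change stated, and the labels do not say whether the 2 cadmium libraries came from separately selected lines. The authors pooled the libraries of each group before calling peaks, so the data used here are 1 list of peak positions on hg38 for each condition, which carries no heights or read counts. The reads and coverage tracks of the study were not analysed here.

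With 1 pooled list per condition, these lists give no spread between replicates, no depth and no test between conditions. A peak is present in a list or it is not, and its width in base pairs is the only quantity in the lists. In the following, a start peak is a peak with any base within 1 kb of the start of a gene's Ensembl canonical transcript, a lost peak is a control peak that shares no base with the cadmium list, and a gained peak is a cadmium peak that shares no base with the control list. Widths come in steps of 200 bp, the bin of the peak caller, and run 1 bp short of its multiples, with 199 bp the narrowest. The whole control list held 69299 peaks and the cadmium list 60130. The lists carry no expression values, so the label of the cell line could not be set against marker genes.

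In the alpha and gamma clusters every member has its own promoter and its own large first exon, which encodes the extracellular and transmembrane parts of the protein, and this exon is spliced to constant exons shared by the whole cluster. Beta members consist mainly of such a large exon and use no shared constant exons. In neurons, each cell chooses a few of these promoters by a mechanism that involves DNA methylation, CTCF, cohesin and a distal enhancer, and the resulting set of proteins gives the cell a surface identity by homophilic binding. The C-type promoters are the exception in that they are used more uniformly. Because the members of the alpha cluster, and likewise those of the gamma cluster, overlap along most of their length, only the start of such a member identifies it. Beta members lie side by side without overlap.

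MTF-1 start peaks were sparse among the clustered protocadherins in both conditions, and sparser in the cadmium list. In control cells 11 of 53 members had a start peak, which is 20.8% (95% Wilson interval 12 to 33.5%, counting error only), beside 68.8% of all protein-coding genes. In cadmium-treated cells 6 of 53 members had one, or 11.3% (5.29 to 22.6%), beside 67.1% of all protein-coding genes. The 6 members of the cadmium list were all among the 11 of the control list, so 0 of 6 lacked a control start peak, beside 1.97% of all protein-coding genes with a cadmium one. A start peak was therefore in both lists at 6 members (background 65.8%), in control only at 5 members (background 3.09%), in cadmium only at 0 members (background 1.32%) and in neither list at 42 members (background 29.8%). Of the 13748 protein-coding genes with a control start peak, 4.49% had no cadmium start peak, and the same was so for 5 of the 11 members. Among the 5474 genes whose control start peak was at most 2199 bp wide, the widest found at a member, that share was 6.87%. These are shares of 2 lists, given as a description without a test.

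**Figure D1:**
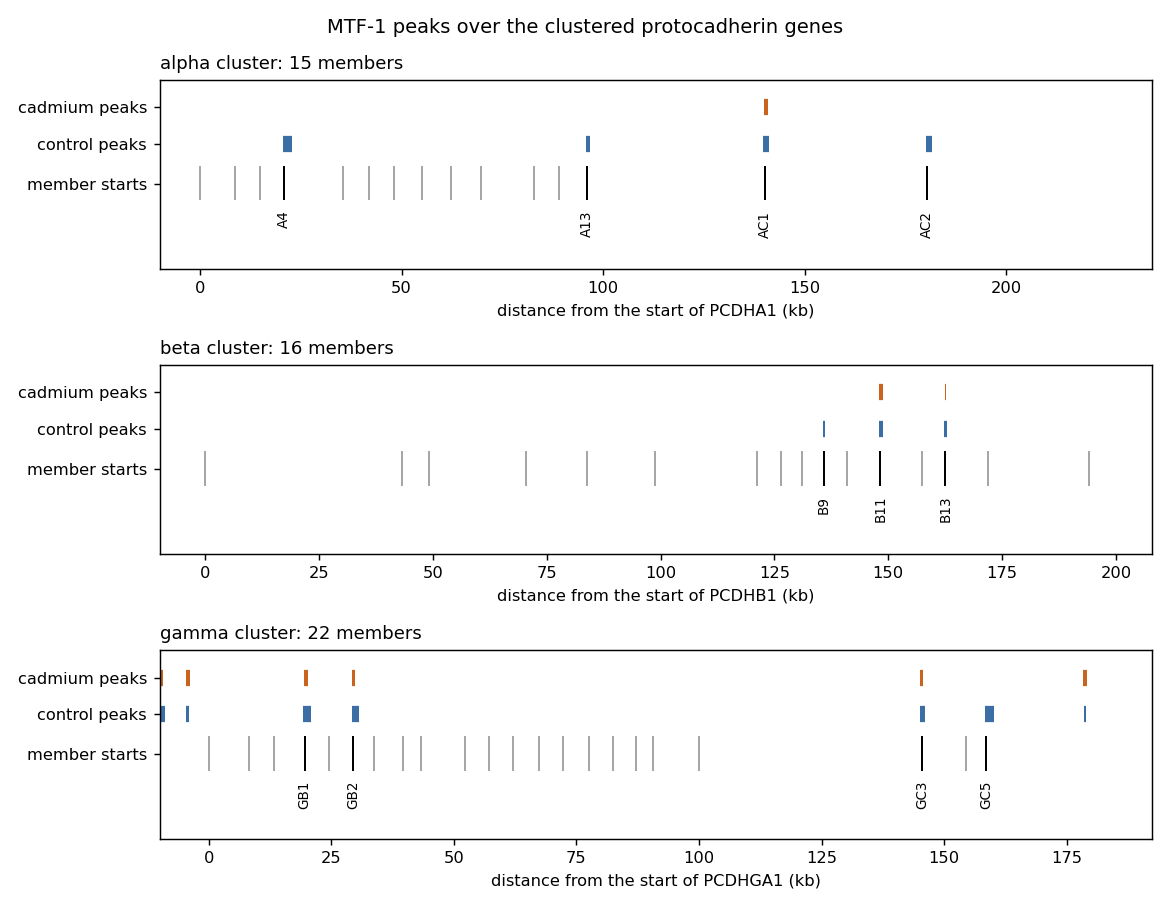
The 3 clusters are drawn to their own scales, with the distance from the first member's start in kb on the horizontal axis; vertical ticks are member starts (black and named where a start peak exists, grey where none does) and blocks are control peaks (blue) and cadmium peaks (orange). Named starts number 4 in the alpha, 3 in the beta and 4 in the gamma cluster, and the cadmium row holds a block at 1, 2 and 3 of them. Peaks after the last base of the gamma cluster are not drawn, although its panel extends 10 kb further.

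The families differed in how many members carried a start peak. The C-type members had it most often, with 4 of 5 in control cells and 2 of 5 in cadmium-treated cells. Among the other alpha members the count was 2 of 13 in control and 0 of 13 in cadmium, among beta members 3 of 16 and 2 of 16, and among gamma B members 2 of 7 in each list. None of the 12 gamma A members had a start peak in either list, which with 12 starts allows a share of up to 24.2% (upper Wilson bound). Families of 5 to 16 genes are too small for their order to be read beyond these counts.

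The C-type members follow the variable members in each cluster and are known for a more constant use than the rest. PCDHAC1, the first of them, starts at position 140926299 and had a control peak of 1399 bp from 140925801 to 140927199 and a cadmium peak of 999 bp from 140926001 to 140926999. PCDHAC2 starts at 140966476, where the control peak spanned 1599 bp from 140966201 to 140967799 and the cadmium list had nothing within 39.5 kb. PCDHGC3 starts at 141475966 and had a peak in both lists, of 999 bp in control (141475601 to 141476599) and 599 bp in cadmium (141475601 to 141476199). PCDHGC5 starts at 141489081 and had a control peak of 1799 bp (141488801 to 141490599) and no cadmium peak within 12.9 kb. PCDHGC4, which lies between the last 2, had no start peak in either list. Its closest peak was the control peak of PCDHGC5, at 3771 bp, and in the cadmium list the nearest was 8831 bp away. Thus each of the alpha and gamma clusters had 1 C-type start that kept its peak and 1 that had it in control cells only.

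The sequences just upstream of these starts are shown for the C-type members with an entry in the RefSeq table and for PCDHA4, the variable member with the widest lost peak, so that a start with a peak in both lists, in control only and in neither can be read side by side. Each is the plus strand of GRCh38.p14, 5′ to 3′, and runs for 240 bases up to 10 bases before the RefSeq start. Capitals mark exact matches, on either strand, to the core of the metal response element (TGCACNC or TGCGCNC) or to a forkhead sequence (GTAAACA, where the leading base may also be A and the sixth may also be T).
PCDHAC1 (both lists, chr5:140926049-140926288): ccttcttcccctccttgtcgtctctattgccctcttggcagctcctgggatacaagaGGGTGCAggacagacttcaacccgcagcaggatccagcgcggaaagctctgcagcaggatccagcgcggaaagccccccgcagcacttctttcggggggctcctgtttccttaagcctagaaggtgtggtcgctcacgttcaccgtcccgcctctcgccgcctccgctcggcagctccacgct
PCDHGC3 (both lists, chr5:141475716-141475955): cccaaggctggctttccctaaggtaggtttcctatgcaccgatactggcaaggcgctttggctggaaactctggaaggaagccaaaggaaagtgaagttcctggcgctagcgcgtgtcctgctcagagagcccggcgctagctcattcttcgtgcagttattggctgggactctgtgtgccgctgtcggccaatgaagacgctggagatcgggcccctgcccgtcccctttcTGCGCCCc
PCDHAC2 (control only, chr5:140966226-140966465): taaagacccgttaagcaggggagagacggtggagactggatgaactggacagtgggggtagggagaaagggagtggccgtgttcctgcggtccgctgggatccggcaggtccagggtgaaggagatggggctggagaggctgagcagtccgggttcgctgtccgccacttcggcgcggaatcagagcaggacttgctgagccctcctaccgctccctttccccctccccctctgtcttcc
PCDHA4 (control only, chr5:140806818-140807057): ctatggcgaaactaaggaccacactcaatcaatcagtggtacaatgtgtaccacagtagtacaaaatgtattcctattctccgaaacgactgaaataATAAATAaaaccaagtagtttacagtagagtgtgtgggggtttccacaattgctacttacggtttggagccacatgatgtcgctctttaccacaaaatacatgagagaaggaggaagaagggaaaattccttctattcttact
PCDHGC4 (neither list, chr5:141484780-141485019): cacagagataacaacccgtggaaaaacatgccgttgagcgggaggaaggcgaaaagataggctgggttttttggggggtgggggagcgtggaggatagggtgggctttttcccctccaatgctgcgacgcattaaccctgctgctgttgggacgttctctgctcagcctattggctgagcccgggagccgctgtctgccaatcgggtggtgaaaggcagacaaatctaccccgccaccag
PCDHAC1 and PCDHGC3, the C-type members with a peak in both lists, each had 1 match to the metal response element core in these bases, and PCDHAC2, PCDHA4 and PCDHGC4 had 0. PCDHA4 had 1 forkhead match, and the others had 0. At the 4 starts with a peak, these bases are only part of it. The 500 bp around the centre of the control peak held 3 metal response element cores at PCDHAC1 and 1 at PCDHGC3. They held 2 at PCDHAC2, whose peak was lost, and 0 at PCDHA4. A match is only a string of letters, and 36.0% of all protein-coding promoters of 300 bases hold a metal response element core, so the pattern over 5 sequences is a description.

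Of the variable alpha members, PCDHA4 and PCDHA13 had a start peak, both in control cells only. PCDHA4 starts at 140807068, and its peak of 2199 bp from 140806801 to 140808999 was the widest at any member. PCDHA13, the last variable exon before the C-type exons, starts at 140882124 and had a peak of 799 bp from 140882001 to 140882799. The other 11 alpha members, PCDHA1 to PCDHA3 and PCDHA5 to PCDHA12, had none in either list. In the cadmium list the nearest peak to any of the 13 starts was 43.9 to 98.0 kb away (median 74.5 kb), because no cadmium peak lay between 140726600 and 140926000. That stretch of 199 kb holds all 13 starts. Among all gaps between neighbouring cadmium peaks, 4.22% were at least as long, and the median gap was 13.6 kb. This share counts gaps and not bases. Long gaps take up more sequence than short ones, so it is not the share of the genome or of starts in such gaps. The stretch is also the longest without a cadmium peak in or beside the locus.

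In the beta cluster the start peaks lay at every other gene of one stretch in its later part. PCDHB9 starts at 141187161 and had the narrowest control peak, 399 bp from 141187001 to 141187399, which was lost. PCDHB11, at 141199627, had a peak of 799 bp with the same ends in both lists, 141199401 to 141200199. PCDHB13, at 141213919, had a control peak of 599 bp (141213601 to 141214199) and a cadmium peak of 199 bp (141213801 to 141213999), a single bin. The remaining 13 beta members had none, including PCDHB10 and PCDHB12 between those named, whose nearest control peak was 4954 and 4882 bp away. The longest stretch of the locus without a control peak, 146 kb from 141041400 to 141187000, covers 9 beta starts from PCDHB1 to PCDHB16 (PCDHB16 lies between PCDHB8 and PCDHB9 on the chromosome), and 4.88% of all control gaps were at least as long. That share, too, counts gaps and not bases.

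In the gamma cluster, A and B members are interspersed along the chromosome, and of the 19 of them only PCDHGB1 and PCDHGB2 had a start peak, in both lists. PCDHGB1 starts at 141350099 and had a control peak of 1599 bp (141349801 to 141351399) and a cadmium peak of 799 bp (141350001 to 141350799). PCDHGB2 starts at 141359994 and had a control peak of 1399 bp (141359801 to 141361199) and a cadmium peak of 599 bp (141359801 to 141360399). PCDHGA4, between the 2, had none, with its nearest control peak at 3622 bp. From PCDHGA5 to PCDHGA12, 13 consecutive starts lay in a stretch of 114 kb with no control peak and of 115 kb with no cadmium peak. The member closest to a start peak without having one was PCDHGA5, 2963 bp from the control peak of PCDHGB2. No start lay near the limit of 1 kb, since all 11 peaks covered the start itself and the next peak was nearly 3 kb away.

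The start peaks had a common shape. Each of the 11 members had 1 control peak in its window, and this peak began 123 to 498 bp before the start (median 275 bp) and ended 238 to 1931 bp after it (median 900 bp). All 11 reached into the coding sequence of the first exon, over 76 to 1812 bases (median 531). The 6 cadmium peaks began 98 to 365 bp before the start and ended 80 to 700 bp after it, and 1 of them, at PCDHB13, held no coding base. So most peaks lay more over the first exon than before it, across its 5′ untranslated part and the beginning of its coding part. The exceptions were PCDHB13 in both lists and PCDHGC3 in the cadmium list, where the peak ran from 365 bp before to 233 bp after the start. At 4 of the 11 members, the control peak also overlapped an exon of another annotated gene, each time a lncRNA gene, antisense to the member except at PCDHB9, namely ENSG00000278901 at PCDHA13, ENSG00000279028 at PCDHAC2, ENSG00000279068 at PCDHB9 and ENSG00000280026 at PCDHGB1.

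**Figure D2:**
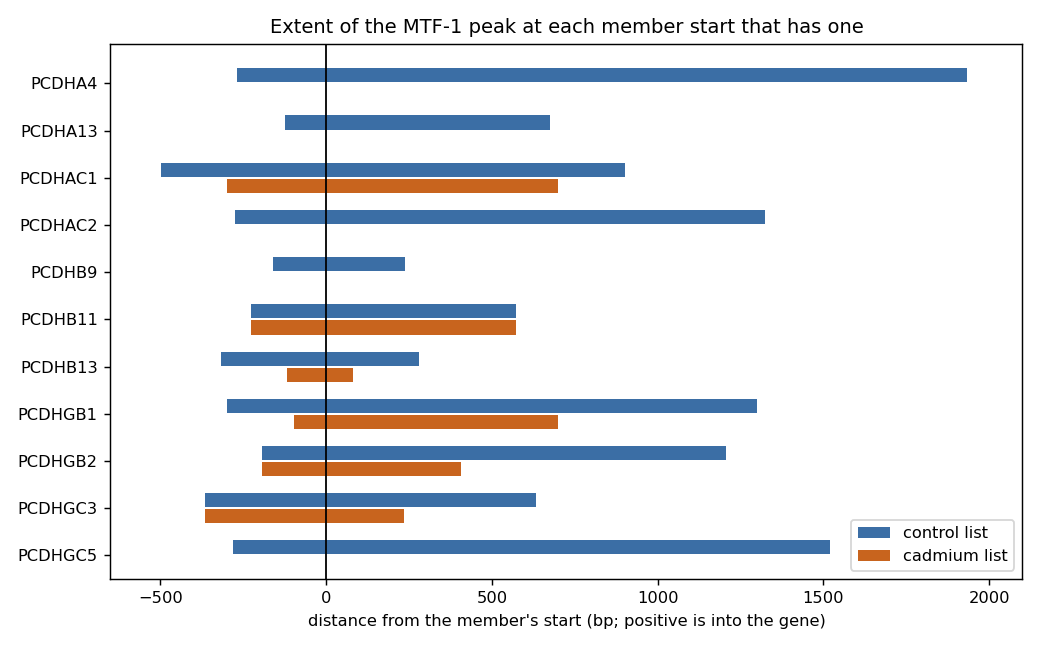
Each bar spans the peak at 1 member's start, with the distance from the start in bp on the horizontal axis (positive into the gene), control in blue and cadmium in orange. All 11 control bars cross the start and extend further into the gene than before it except at PCDHB13, and the 6 cadmium bars lie within or equal the control bars.

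Widths at the 5 members whose peak was lost and at the 6 that kept it overlapped. The lost control peaks measured 2199 bp (PCDHA4), 1799 bp (PCDHGC5), 1599 bp (PCDHAC2), 799 bp (PCDHA13) and 399 bp (PCDHB9), with a median of 1599 bp. The kept members had control peaks of 599 to 1599 bp, with a median of 1199 bp. The narrowest and the widest control peak at a member were both among the lost ones, and the widths were not tested. At the 6 kept members the cadmium peak was narrower in 5 and equal in 1. It was 33.2% of the control width at PCDHB13, 42.8% at PCDHGB2, 50% at PCDHGB1, 60.0% at PCDHGC3 and 71.4% at PCDHAC1, and equal at PCDHB11. Over all 13131 protein-coding genes with a start peak in both lists, the control width was the larger in 61.2%. The median widths were 2799 bp in control and 2199 bp in cadmium. The members' median control start peak of 1399 bp was below the 2599 bp of all protein-coding genes with one. In these values over all genes, widths were added where several peaks touched a gene's window, whereas each member had a single peak.

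Counts over whole clusters, from the first to the last base of the member genes, rest on nearly the same peaks. The start peaks above make up 11 of the 12 control peaks and 6 of the 7 cadmium peaks there, so these counts are no separate support. The alpha cluster (140786136 to 141012347, 226 kb) held 4 control peaks and 1 cadmium peak, the beta cluster (141051374 to 141249365, 198 kb) 3 and 2, and the gamma cluster (141330514 to 141512977, 182 kb) 5 and 4. Of the 12 control peaks 5 were lost, beside 27.9% of the whole control list, and of the 7 cadmium peaks 0 were gained, beside 15.1% of the cadmium list. All 5 lost peaks were start peaks. Of all protein-coding genes with a control start peak, 4.49% had no cadmium start peak, whereas the 27.9% counts peaks at any position. The sequence covered by peaks was 2.65% of the alpha cluster in control and 0.442% in cadmium, 0.908% and 0.504% of the beta cluster, and 3.40% and 1.53% of the gamma cluster. Genome-wide it was 4.30% and 3%. The cadmium peaks thus covered 16.7% as many bases as the control peaks in the alpha cluster, 55.5% in the beta cluster and 45.1% in the gamma cluster, against 69.7% over chromosomes 1 to 22 and X. In peaks per Mb the 3 clusters together had 19.8 in control and 11.5 in cadmium, beside 22.9 and 19.8 genome-wide.

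The 1 peak inside a cluster that was at no canonical start lay near the end of the gamma cluster, in the region of the constant exons shared by all 22 gamma members. It measured 399 bp in control (141509001 to 141509399) and 799 bp in cadmium (141508801 to 141509599), and was the only peak inside the 3 clusters that was wider in the cadmium list. It overlapped no annotated exon of a member and fell in an intron. The alpha constant region held no peak in either list.

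Between the alpha and beta clusters, a stretch of 39.0 kb, a single peak was present in both lists. It spanned 1799 bp in control (141039601 to 141041399) and 999 bp in cadmium (141040401 to 141041399), and overlaps an exon of the lncRNA gene ENSG00000288892 on the minus strand. The enhancer that the alpha promoters use is known to lie downstream of the alpha constant exons, on this side of the cluster. The annotation used here marks no enhancers, so the peak was not assigned to it. The 500 bp around the centre of the control peak held 1 CTCF core string (defined below), and those around the centre of the cadmium peak held 0. The middle 300 bases of the part shared by both lists are given since this is the only MTF-1 site of the interval. They are on the plus strand of hg38 and do not include that CTCF string or any other match to the motifs searched.
Shared site between the clusters (chr5:141040751-141041050): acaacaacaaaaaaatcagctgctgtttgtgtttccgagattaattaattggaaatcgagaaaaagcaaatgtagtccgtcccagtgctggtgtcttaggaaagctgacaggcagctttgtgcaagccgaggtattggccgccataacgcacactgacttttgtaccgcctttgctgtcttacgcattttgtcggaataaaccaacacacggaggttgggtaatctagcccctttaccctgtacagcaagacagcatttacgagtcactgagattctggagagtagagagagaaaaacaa
Between the beta and gamma clusters, where the unrelated genes TAF7 and SLC25A2 lie, both lists had 2 peaks. One was at the start of TAF7, which encodes a subunit of the general transcription factor TFIID, with 2999 bp in control and 999 bp in cadmium. The other, over an exon of the lncRNA gene ENSG00000272070, measured 599 bp in control and 799 bp in cadmium and lay 3915 bp before the start of PCDHGA1 in control.

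Start peaks were frequent at the other genes in and around the locus. Of the 30 other protein-coding genes with a start within 500 kb of the outermost member starts, 28 had a control start peak (93.3%) and 27 a cadmium start peak (90%). The 3 exceptions were EIF4EBP3, with a start peak of 3399 bp in control only, and SLC25A2 and ENSG00000279983, which had none and both start inside the locus. Peaks per Mb were 74.0 in control and 66.0 in cadmium over the 500 kb before the alpha cluster, and 50 and 70 over the 500 kb after the gamma cluster, where 9 of 35 cadmium peaks were gained. Start peaks of the neighbours were also wider, with a median of 3599 bp in control and 1999 bp in cadmium. These counts and widths are per gene, and genes with adjacent starts, such as HARS1 and HARS2, share a peak that is counted for each.

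The non-clustered protocadherins, single genes elsewhere in the genome with their own promoters, lay between the members and the background. Of 12 such genes 7 had a control start peak (58.3%) and 6 a cadmium start peak (50%). PCDH1, which lies on chromosome 5 beyond the gamma cluster and, like PCDH12, is also among the neighbours above, had 6399 bp in control and 3999 bp in cadmium, and PCDH7 had 5199 and 3999 bp. PCDH12, a protocadherin of endothelial cells, had 4999 and 799 bp. PCDH9, PCDH10 and PCDH18 had peaks of 1799, 599 and 599 bp in control and 1599, 599 and 599 bp in cadmium. PCDH20 had 799 bp in control only. PCDH8, PCDH11X, PCDH15, PCDH17 and PCDH19 had none.

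Genes that act on the clusters or with their proteins had start peaks in both lists at nearly every start, above the background shares of 68.8% and 67.1%. Of 23 regulators of protocadherin promoters (CTCF, cohesin and its loaders and release factors, DNA methyltransferases, TET enzymes and silencing factors such as SMCHD1, SETDB1 and WIZ) 22 had a start peak in both lists, and TET1 had none. Of 15 partners that bind or process the proteins (among them the sheddase ADAM10, the kinases PTK2 and FYN, AXIN1 and the WAVE complex) 14 had a start peak in both lists, and RET, a receptor tyrosine kinase, had none. Of 2 other kinds of clustered genes, HOX genes had a start peak at 6 of 39 in both lists (15.4%) and none in a single list, and chromosome 11 olfactory receptors had a control start peak at 3 of 172 (1.74%) and a cadmium start peak at 2 (1.16%).

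**Figure D3:**
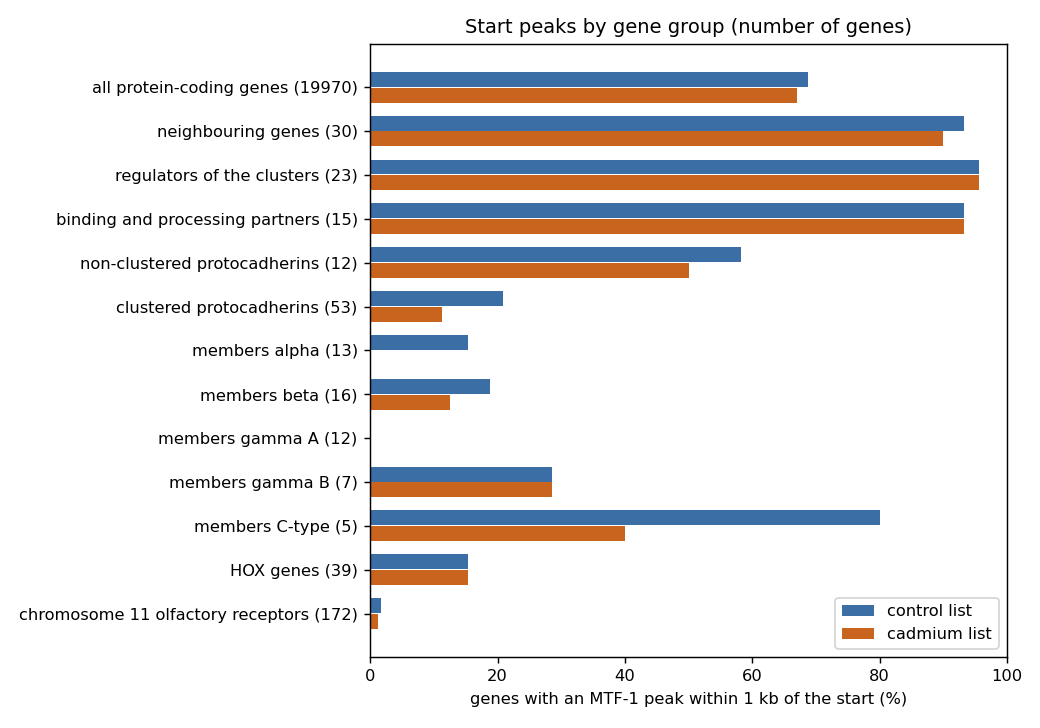
Bars give the percent of genes in each group with an MTF-1 peak within 1 kb of the start, from 0 to 100%, control in blue and cadmium in orange, with the number of genes in parentheses. The clustered protocadherins, at 20.8% and 11.3%, lie below the 68.8% and 67.1% of all protein-coding genes, and gamma A members have no bar.

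The promoters themselves, from 250 bases before to 50 after the RefSeq start, were available for 47 members. PCDHA3, PCDHA13, PCDHB6, PCDHB11, PCDHGA12 and PCDHGC5 had no entry. Of these, PCDHB11 had a start peak in both lists, and PCDHA13 and PCDHGC5 had one in control only. The members' promoters were poor in G and C, with a median GC content of 39.7% (range 32.3 to 66.0%) beside 63.7% for 15315 protein-coding promoters. The ratio of observed to expected CpG dinucleotides had a median of 0.593, beside 0.783. The C-type promoters differed from the rest, with 59.0 to 66.0% GC, and the 7 gamma B promoters came next with a median of 48.3%, beside 40.8% for beta, 38.3% for gamma A and 36.0% for alpha members. Members with a start peak in both lists had 46.3 to 66.0% GC (5 promoters), those with one in control only 40.3, 42.0 and 63.0%, and those with none 32.3 to 60.7% (39 promoters, median 38.3%). The ranges overlap, and the 60.7% is PCDHGC4, a C-type member. For PCDHGB2 (51.3% GC, both lists) the RefSeq start lies downstream of the canonical start at 141359994 used for its peaks. Its promoter, 141359886 to 141360185, therefore reaches into its coding sequence.

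Start peaks were also rarer in GC-poor promoters across all genes, which is given beside the members' counts. Below 45% GC, 17.7% of 1559 protein-coding promoters had a control start peak and 14.5% a cadmium one, and of the 35 members in that class 2 and 0 did. From 45% to under 55% GC the shares were 47.9% and 45.6% of 2115 promoters, and 3 of 8 members in both lists. At 55% GC or more they were 81.9% and 80.6% of 11641 promoters, and of the 4 members, all C-type, 3 had a control and 2 a cadmium start peak. The part of base composition in the members' low counts was not tested.

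**Figure D4:**
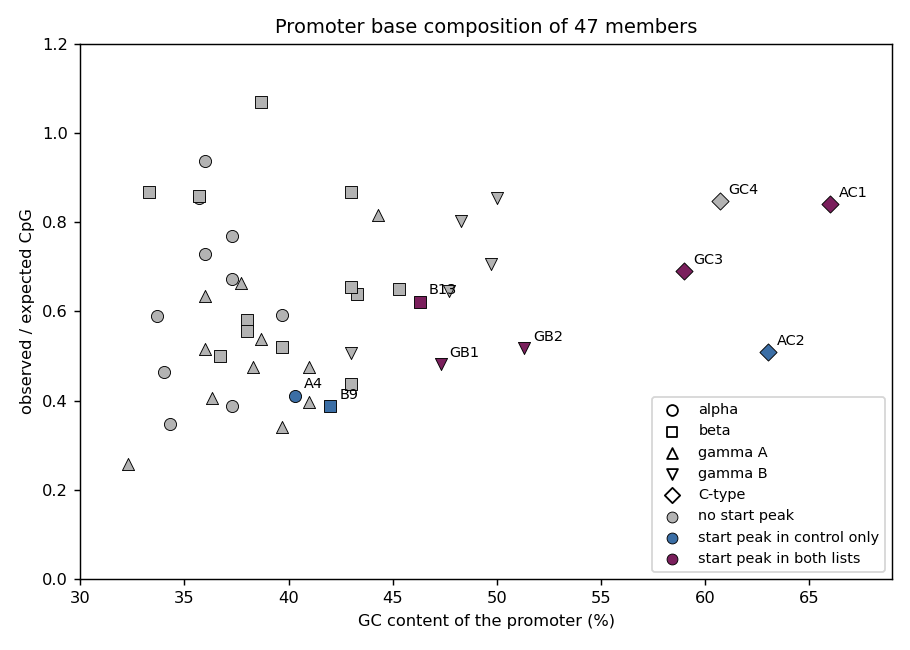
Each point is the promoter of 1 of 47 members, with GC content in percent on the horizontal axis and the ratio of observed to expected CpG on the vertical axis; shapes give the family and colours the start peak status. Points with a peak in both lists lie at 46.3% GC or more, and the 4 C-type points stand apart at 59.0% or more. PCDHB11 (both lists) and PCDHA13 and PCDHGC5 (control only) had no promoter entry and are not drawn.

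Short sequence strings were searched on both strands of the same promoters. The metal response element core, TGCACNC or TGCGCNC, was in 8 of 47 member promoters (17%), beside 36.0% of all protein-coding promoters. It was in 3 of the 5 with a start peak in both lists (PCDHAC1, PCDHB13 and PCDHGC3), in 0 of the 3 with one in control only and in 5 of the 39 with none. These classes leave out PCDHB11 (both lists) and PCDHA13 and PCDHGC5 (control only), which had no promoter entry. In the 500 bp around their control peak centres, PCDHB11 and PCDHA13 each held 1 core and PCDHGC5 held 0. The same span held 2 at PCDHAC2, which is control only and has 0 in its promoter. The AP-1 strings TGACTCA and TGAGTCA were in 0 of 47, beside 3.55%. A forkhead string was in 12 of 47 (25.5%), beside 9.44%, and in 0 of 5, 2 of 3 and 10 of 39 by the same classes. A CTCF core string (CC, 3 free bases, AG, 2 free bases and GGC) was in 1, PCDHB9 (2.13%), beside 13.2%, and TATAAA in 6 (12.8%), beside 9.43%. These strings depend on base composition, so the shares cannot be read apart from the low GC content. In the 500 bp around the centres of the 12 control peaks in the clusters, the metal response element core was found in 7, beside 34.3% of all control peaks, an AP-1 string in 2, beside 24.5%, a forkhead string in 5, beside 30.5%, the CTCF core string in 3, beside 11.4%, and TATAAA in 2, beside 24.4%. In the 7 cadmium peaks the metal response element core was in 5, beside 35.6%, and an AP-1 string in 1, beside 28.3%. A forkhead string was in 1 of them, beside 25.5%, the CTCF core string in 1, beside 13.7%, and TATAAA in 0, beside 20.8%.

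Members of these clusters resemble each other in sequence, and how reads that fit several of them were placed is not given in the sources used here. Of the 100-base words in the 2 kb around each start, the share that occurs again within the locus was 0 at 8 of the 11 members with a start peak and at 29 of the 42 without one, and reached 28.7% in both sets. Within the peaks themselves, repeated words made up 9% of the control peak of PCDHA13, 15% of the control peak and 28.0% of the cadmium peak of PCDHB13, and 0% of the other peaks at starts. PCDHB13 and PCDHB8 each had 28.7% repeated words in the window, and PCDHB8 had no start peak. The part of shared sequence in these counts was not tested. The 6 protocadherin pseudogenes of the locus, PCDHA14, PCDHB17P, PCDHB18P, PCDHB19P, PCDHGB8P and PCDHGB9P, had no start peak in either list.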

How the data were processed

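CUT&RUN with an anti-MTF1 antibody was carried out by the authors in untreated and cadmium-treated MDA-MB-231 cells, with 2 libraries each. Per the study's methods, reads were trimmed, aligned to hg38 with Bowtie2 and merged by condition with SAMtools 1.8, and peaks were called on the merged reads with Epic2 0.0.50 at default parameters; GEO's processing notes name SICER with that version. The methods name no control library for peak calling. The deposited lists hold a chromosome, a start and an end per peak, and a last column that is 5 throughout. Depth per library cannot be read from these lists, and the reads and coverage tracks were not used here.

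Member starts were taken from GENCODE 44 on hg38, as the 5′ end of the Ensembl canonical transcript. Peaks were compared as closed intervals with at least 1 shared base, and lost and gained counts were checked against bedtools 2.31.1. Sequences were read with pysam 0.24.0 or copied from the RefSeq table, and Wilson intervals came from scipy 1.17.1. Overlap, distance and motif steps were tested on simulated data. No significance test was made, since the lists hold no replicates. The members, comparison lists, naming rule and alternatives were chosen with earlier results of these data known. Named were members with a start peak and, as the rule asks, the widest peaks, which are the same ones. The classes of promoter GC content, the repeated 100-base words and the pseudogenes were added after the peaks had been seen. Alternatives were other windows, start sets, minimum widths, sharing rules and cluster limits.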

Additional observations from a re-analysis of the deposited data

How the results depend on the processing

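Member counts were the same with every window and start set tried. The windows of 500 bp and 2 kb could not change them. Every start peak covered the start itself, and the closest peak to any other member start was 2963 bp away in control and 3715 bp in cadmium. With 500 bp or 2 kb either side of the start, with the peak centre in the window, or with every annotated transcript start, 11 members had a control start peak, 6 a cadmium start peak, 5 one in control only and 0 one in cadmium only. Width and sharing rules moved other values. With peaks of at least 1000 bp, 6 members had a control and 0 a cadmium start peak, 0 conserved peaks remained, and 0 bases were covered by control peaks in the beta cluster and by cadmium peaks in all 3 clusters. Since widths run 1 bp short of a multiple of 200 bp, that cut also dropped peaks of 999 bp, such as the cadmium peak of PCDHAC1. The counts of 0 cadmium start peaks and 0 conserved peaks therefore depend on where the cut falls. With peaks of at least 400 bp, 1 peak counted as gained. This is the gamma constant-region site, whose control peak of 399 bp fell just under the cut for the same reason. When a shared peak needed 50% of its bases in the opposite list, 8 peaks counted as lost and 1 as gained. With cluster spans widened by 10 kb there were 11 conserved peaks, and 10479 control and 6880 cadmium bases were covered in the gamma cluster, since sites outside it were taken in. Of 53 values recomputed in all, 40 were within 1.5 times the reported value. These include the values from the 500 bp and 2 kb windows, which could not move. No replicate could be left out of the lists, since they were called on pooled libraries, and the reads and coverage tracks of the single libraries were not analysed here. No paired analysis was possible because the pooled lists carry no replicate numbers. The lists hold no read counts, so a peak near the caller's threshold cannot be told from an absent one, and a difference in depth between conditions could not be corrected from them.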
